A study of Mus musculus with 8 samples.

Results

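The tumour suppressor gene Trp53, which encodes p53, was examined together with 9 genes tied to it: Mdm2, Cdkn1a, Ccng1, Plk2, Zmat3, Sesn1, Phlda3, Bbc3 and Bax. Members were taken by gene symbol from the deposited table, in which all 10 were found once each among 26848 genes. All 10 also passed the filter on low counts, which kept 16006 genes. RNA had been sequenced from RAW264.7 cells, a macrophage-like line derived from a mouse tumour induced by Abelson murine leukaemia virus, after culture on polyetheretherketone (PEEK), a polymer for bone implants. The PEEK surface was smooth in 4 libraries and structured at the nanometre and micrometre scale in the other 4, and no other treatment or time is given in the labels. Cells of both groups were the same line, so any alteration of the p53 pathway that the line carries was shared by both surfaces. The labels number biological replicates without stating separate cultures, so the p-values cover the spread among these libraries only, and that spread may be technical.

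p53 is a transcription factor that is held at a low level by the ubiquitin ligase Mdm2, itself the product of a p53 target gene. After DNA damage or other stress p53 is stabilised, mostly at the protein level, and switches on genes for cell cycle arrest (Cdkn1a, Ccng1, Plk2), for restraint of growth signals (Sesn1, Phlda3), for RNA control (Zmat3) and for cell death (Bbc3, Bax). In macrophages the pathway is known for limiting proliferation and for crosstalk with inflammatory gene control. Transcript levels do not report the amount or modification of the p53 protein, which was not measured here.

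Stretches of the members' promoters that come closest to the p53 consensus sequence are shown first, so that the members can be compared by sequence. The p53 response element is made of 2 half-sites of 10 bases, and its consensus reads alike on both strands. Windows from 250 bases before to 50 bases after the start of each gene (RefSeq, GRCm38.p6) were searched for 2 half-sites placed end to end, and 13 windows of 9 members were present, all but Zmat3. The best match of each window was kept, and 6 of these windows, 1 each in 6 members, had at most 3 mismatches over 20 bases. Of all 32851 windows in the RefSeq table, 6.29% had such a match. In the lines below capitals mark the letters of the site that fit the consensus, and lower case marks mismatches and 5 flanking bases on each side.
Cdkn1a: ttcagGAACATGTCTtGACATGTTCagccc
Ccng1: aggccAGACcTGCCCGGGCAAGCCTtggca
Trp53: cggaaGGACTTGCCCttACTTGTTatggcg
Sesn1: ccttcAAGCTTGTTTttGCTgGCCTggtcc
Bax: tgacaAGcaTAtCCCAGGCAAGCTTtgaac
Bbc3: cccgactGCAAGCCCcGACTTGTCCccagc
Plk2: tgctcGctCTTGCTCGcACAAGCgaagcag
The Cdkn1a stretch lies on the plus strand at chr17:29090923-29090952 and the Ccng1 stretch on the minus strand at chr11:40755457-40755486. Each of these sites had 1 mismatch, where 0.798% of all windows had a site with at most 2. The Trp53 (plus strand, chr11:69580279-69580308), Sesn1 (plus strand, chr10:41887261-41887290), Bax (minus strand, chr7:45467085-45467114) and Bbc3 (plus strand, chr7:16309481-16309510) sites had 3 mismatches each. Plk2 (plus strand, chr13:110395033-110395062) is shown for contrast, since its best match had 5 mismatches, as did those of Mdm2 and Phlda3. The windows of Cdkn1a, Bbc3 and Sesn1 that are not shown had best matches with 5 or 6 mismatches. The Mdm2 window also held 1 half-site without a mismatch, as did 8.36% of all windows in any number. These are matches of letters in short windows and say nothing of p53 binding, and sites in introns or farther upstream were not searched.

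The level of each member was first set out per gene length, in FPKM (fragments normalized to gene length and library depth, as deposited). On smooth PEEK Bax had the highest level, at 130.4 ± 10.4 FPKM (SD, n = 4). Mdm2 followed at 65.7 ± 3.04 and Trp53 at 64.5 ± 0.889 FPKM, with overlapping ranges. Cdkn1a stood at 44.4 ± 0.995 FPKM and Ccng1 at 40.9 ± 1.80 FPKM, and Plk2 at 18.0 ± 0.408 FPKM. The lowest levels were those of Bbc3 (7.03 ± 1.29 FPKM), Sesn1 (7.01 ± 0.312), Phlda3 (6.33 ± 1.18) and Zmat3 (4.99 ± 0.11), and neighbours in this order had overlapping ranges. On structured PEEK the order was the same, except that Ccng1 and Cdkn1a, both at 41.5 FPKM, and Sesn1 and Bbc3 exchanged places within overlapping ranges.

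**Figure D1:**
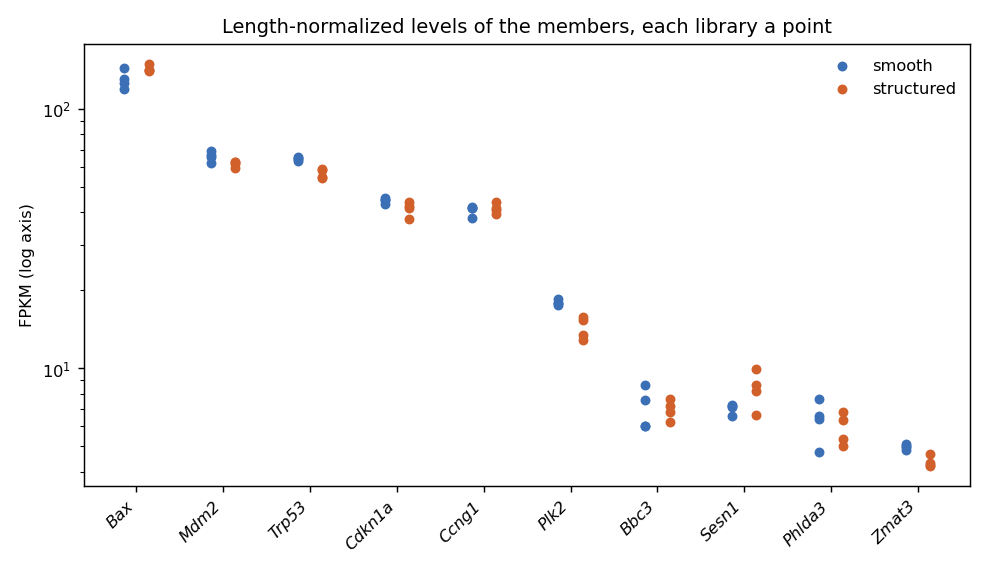
Length-normalized level (FPKM, log axis) of each member in each of the 8 libraries, smooth in blue and structured in orange. Members span from about 4.99 FPKM (Zmat3) to 130.4 FPKM (Bax) on smooth PEEK, and most pairs of groups lie close together.

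Between surfaces, levels were compared as CPM (estimated counts scaled to a common TMM-adjusted library total) with the quasi-likelihood test of edgeR, Benjamini-Hochberg (BH) adjusted over all 16006 genes at 0.05. Trp53, Plk2 and Zmat3 fell on structured PEEK, and no member rose. These 3 of 10 stood beside 601 of all tested genes called (3.75%), 440 of them lower (2.75%) and 161 higher (1.01%). With DESeq2, 4 members were called, Bax as higher beside the same 3 as lower, against 8.95% of all tested genes. The median log2 fold change of the 10 members was -0.10, against 0.0056 over all tested genes, and 7 members had negative values, as did 48.8% of all genes. CPM values of the surfaces did not overlap for 3 members, against 12.2% of all tested genes. The members were chosen as p53 genes with earlier results of these data known, so their share is a description. In RNA from whole cultures, fewer cells of a type and less RNA per cell cannot be told apart.

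Trp53 itself (ENSMUSG00000059552, chromosome 11, 69580359 to 69591873) was at 275, 283, 281 and 276 CPM in smooth 1 to 4. It was at 251, 239, 253 and 234 CPM in structured 1 to 4. All 4 structured libraries were below all 4 smooth ones. The mean fell from 279 ± 4.24 to 244 ± 9.09 CPM (SD, n = 4), or by 12.3%, with a log2 fold change of -0.19 ± 0.04 (SE; 95% interval -0.27 to -0.11; edgeR BH-adjusted p = 0.0214). Leaving out smooth 2 gave an adjusted p of 0.0596, smooth 3 gave 0.0595, structured 2 gave 0.0714 and structured 4 gave 0.0800, with log2 fold changes of -0.21 to -0.17 over all 8 libraries left out in turn. The pseudogene Trp53-ps, looked up after its values were seen, was at 0.36 to 2.59 CPM.

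Mdm2, the ligase that marks p53 for degradation, was at 329.6, 363, 379 and 359 CPM in smooth 1 to 4. In structured 1 to 4 it was at 336, 336, 338 and 320.1 CPM. Smooth 1 lay among the structured libraries, and the other 3 smooth libraries lay above them. Its log2 fold change was -0.10 ± 0.04 (SE; 95% interval -0.20 to -0.01) and did not pass the threshold (edgeR BH-adjusted p = 0.23; 0.0684 without smooth 1).

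Cdkn1a held 1 of the closest promoter matches in 1 of its windows, as Ccng1 did in its window. It encodes p21, the inhibitor of cyclin-dependent kinases through which p53 arrests the cycle. It was at 166, 171, 174 and 165 CPM on smooth and at 142, 162, 166 and 157 CPM on structured PEEK. Structured 1 was the lowest and structured 3 lay within the smooth range. Its log2 fold change of -0.10 ± 0.05 (SE; 95% interval -0.21 to 0.0018) did not pass (edgeR BH-adjusted p = 0.277). Ccng1, a cyclin that brings a phosphatase to Mdm2, was at 141, 157, 159 and 158 CPM on smooth and at 147, 166, 155 and 153 CPM on structured PEEK. Its groups overlapped throughout, with a log2 fold change of 0.02 ± 0.05 (SE; 95% interval -0.09 to 0.13; edgeR BH-adjusted p = 0.914).

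Plk2, a stress-induced kinase of the polo family (ENSMUSG00000021701, chromosome 13, 110395046 to 110400844), had the largest fold change among the 10. It was at 84.2, 86.3, 89.8 and 85.2 CPM in smooth 1 to 4. It was at 61.4, 74.3, 75.0 and 64.4 CPM in structured 1 to 4. The groups were separate, and structured 1 and structured 4 were the lowest. The mean fell from 86.4 ± 2.45 to 68.8 ± 6.94 CPM (SD, n = 4), or by 20.4%, with a log2 fold change of -0.33 ± 0.06 (SE; 95% interval -0.47 to -0.19; edgeR BH-adjusted p = 0.0234). Leaving out smooth 2 gave an adjusted p of 0.0574, smooth 3 gave 0.0722, smooth 4 gave 0.0535 and structured 4 gave 0.0788.

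Zmat3, a zinc-finger protein that binds RNA (ENSMUSG00000027663, chromosome 3, 32334792 to 32366014), was at 60.3, 61.1, 59.8 and 63.1 CPM on smooth PEEK. On structured PEEK it was at 50.9, 52.1, 56.6 and 52.3 CPM. No structured library reached the smooth range, and structured 3 was nearest to it. The mean fell from 61.1 ± 1.43 to 52.97 ± 2.49 CPM (SD, n = 4), or by 13.3%, with a log2 fold change of -0.21 ± 0.05 (SE; 95% interval -0.31 to -0.10; edgeR BH-adjusted p = 0.0357). This was the least stable of the 3 calls. It held without structured 3 alone of the 8 libraries (adjusted p = 0.0262) and was lost when any other was left out, with adjusted p-values from 0.0551 (smooth 1 left out) to 0.113 (structured 4 left out). With the trend of counts on GC content and transcript length removed, its log2 fold change was -0.14 (edgeR BH-adjusted p = 0.147).

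**Figure D2:**
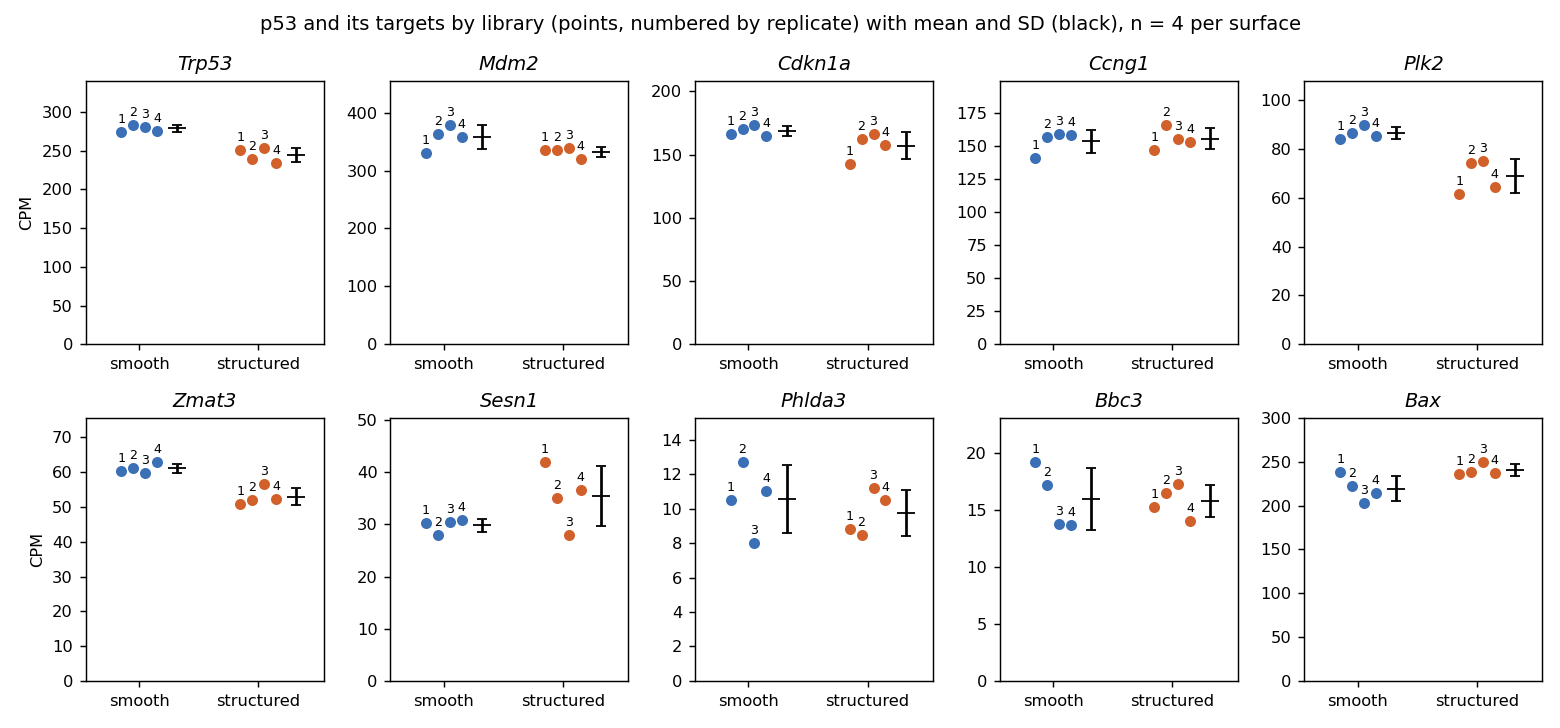
CPM of each member in each library (points, numbered by replicate) with the mean and SD of the 4 libraries per surface (black), each axis starting at 0. The surfaces are separate for Trp53, Plk2 and Zmat3 and overlap for the other 7 members.

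Sesn1, a sestrin that restrains growth signalling through mTORC1, had the highest positive value. It was at 30.3, 28.01, 30.4 and 30.8 CPM in smooth 1 to 4. It was at 42.0, 35.0, 27.98 and 36.6 CPM in structured 1 to 4. Structured 1, 2 and 4 stood above the smooth range, and structured 3 was as low as the lowest smooth library. Its log2 fold change was 0.25 ± 0.10 (SE; 95% interval 0.03 to 0.46; edgeR BH-adjusted p = 0.205), and without structured 3 it was 0.34 with an adjusted p of 0.0297. Phlda3, which competes with the kinase Akt at the membrane, was at 8.00 to 12.7 CPM on smooth and 8.45 to 11.2 CPM on structured PEEK. Its log2 fold change was -0.11 ± 0.15 (SE; 95% interval -0.43 to 0.20; edgeR BH-adjusted p = 0.759).

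The cell death genes did not pass the threshold either. Bax, which forms pores in the outer mitochondrial membrane, was at 238, 222, 203 and 215 CPM on smooth and at 236, 238, 250.2 and 237 CPM on structured PEEK. Smooth 1 lay within the structured range, and the other 3 smooth libraries were below it. Its log2 fold change was 0.13 ± 0.05 (SE; 95% interval 0.03 to 0.24; edgeR BH-adjusted p = 0.162), while DESeq2 gave an adjusted p of 0.0461. Bbc3, the BH3-only protein PUMA that sets Bax free to act, was at 19.2, 17.2, 13.7 and 13.7 CPM on smooth and at 15.2, 16.4, 17.2 and 14.03 CPM on structured PEEK. Its structured values all lay inside the smooth range, with a log2 fold change of -0.02 ± 0.12 (SE; 95% interval -0.28 to 0.23; edgeR BH-adjusted p = 0.957). For Ccng1, Phlda3 and Bbc3 these intervals bound the difference and do not show equal levels.

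**Figure D3:**
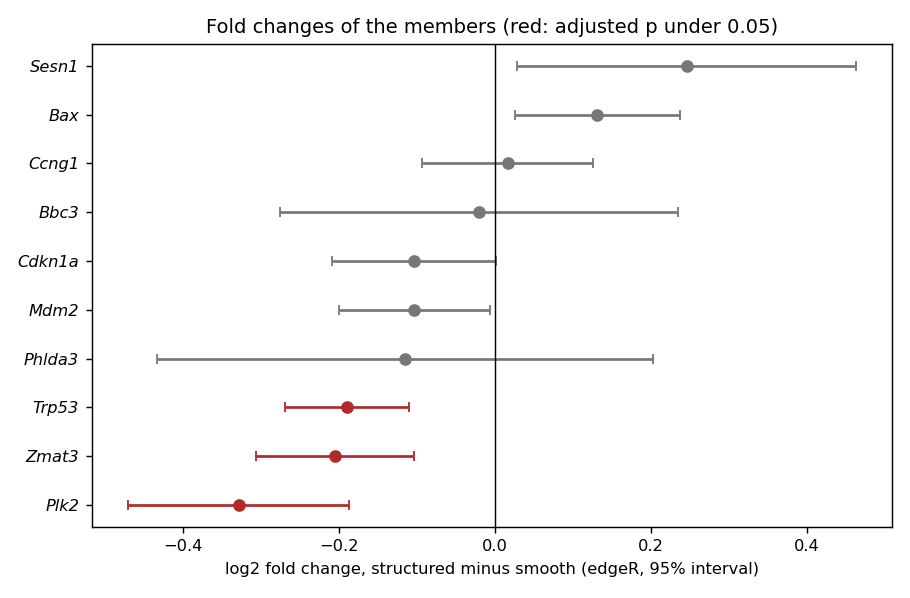
Log2 fold change, structured minus smooth, of each member from edgeR, with its 95% interval; red marks an adjusted p under 0.05. Plk2 (-0.33), Zmat3 (-0.21) and Trp53 (-0.19) are red, and the values run up to 0.25 for Sesn1.

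The structured libraries did not contribute equally. Structured 3 was nearest to the smooth mean for 6 of the 10 members and had the highest level of its group for 8 of them. For the 3 called members its median deviation from the smooth mean was -0.14 on the log2 scale, against -0.26, -0.22 and -0.25 in structured 1, 2 and 4. Over all 440 genes called lower, the median deviation of structured 3 was -0.20, against -0.23, -0.26 and -0.27. Leaving structured 3 out gave 4 called members, with Sesn1 higher beside Trp53, Plk2 and Zmat3 lower. No member was called without smooth 2, smooth 3 or structured 4.

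**Figure D4:**
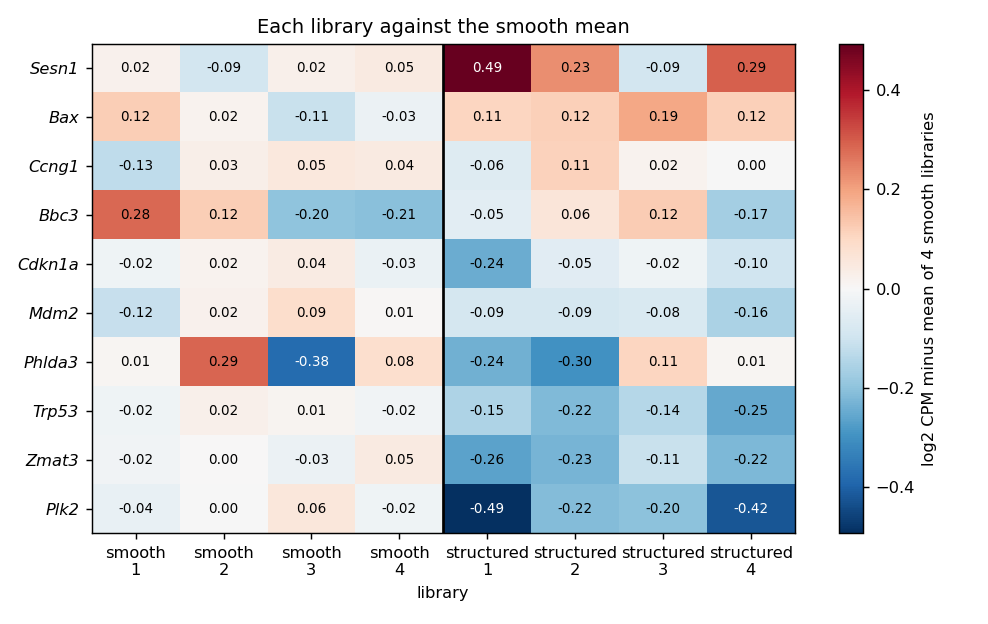
Log2 CPM of each member in each library minus the mean of the 4 smooth libraries (blue lower, red higher). Plk2, Zmat3 and Trp53 are negative in all 4 structured libraries, and structured 3 has the smallest shifts for these 3 genes.

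Library totals were 64479829 to 73098735 estimated counts. Correlations of log2 CPM were 0.968 to 0.982 within and 0.968 to 0.979 between surfaces. Of 11 macrophage markers, 10 reached 1 CPM in every library (Mertk did not), and their summed level was 6120 to 6551 CPM on smooth and 6465 to 6612 CPM on structured PEEK. Marker lists of other cell types had lower sums. The 7 osteoclast markers summed to 154 to 176 CPM on smooth and 151 to 183 CPM on structured PEEK, and 6 reached 1 CPM in every library. The 8 fibroblast markers summed to 2.02 to 3.51 CPM on smooth and 0.682 to 4.30 CPM on structured PEEK. The 10 neutrophil markers summed to 0.0424 to 0.341 CPM on smooth PEEK, where 7 (Ngp, Ltf, Mmp8, Retnlg, Elane, Mpo and Cxcr2) were at 0 in every library. They summed to 3.65 CPM in structured 1 and to 34.6 to 39.5 CPM in structured 2 to 4. Trp53, Plk2 and Zmat3 were below the smooth range in each structured library. The 10 hepatocyte markers summed to 249 CPM in smooth 1 and to 55.0 to 80.2 CPM in smooth 2 to 4. In structured 1 to 4 they summed to 101, 103.6, 199.5 and 356 CPM. The 10 skeletal muscle markers summed to 18.6 to 60.3 CPM on smooth, highest in smooth 1, and 15.2 to 21.5 CPM on structured PEEK. Their part in the results was not tested. Leaving out structured 2 to 4 together keeps 1 structured library, so calls from that fit cannot show whether the results depend on them. In structured 1, log2 CPM minus the smooth mean was -0.15 for Trp53, -0.49 for Plk2 and -0.26 for Zmat3.

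Among regulators that act on p53, 2 of 17 tested genes fell and none rose, where 3.75% of all tested genes were called and 2.75% were lower. Hipk2, a kinase that phosphorylates p53, was at 112, 98.2, 99.5 and 105 CPM on smooth and at 93.6, 85.4, 84.6 and 80.0 CPM on structured PEEK. Every structured library was below the smooth range, with a log2 fold change of -0.27 ± 0.06 (SE, n = 4 per group; edgeR BH-adjusted p = 0.0272). Ep300, an acetyltransferase that serves p53 and many other factors as a coactivator, was at 136, 122, 140.2 and 129 CPM on smooth and at 122, 114, 109 and 104 CPM on structured PEEK. Its ranges nearly met, and its log2 fold change was -0.23 ± 0.06 (edgeR BH-adjusted p = 0.0462). With the GC and length trend removed both lost their call, at -0.17 (adjusted p = 0.0956) and -0.14 (adjusted p = 0.126). With 1 library left out, Hipk2 kept its call without smooth 1 or structured 1 alone (adjusted p up to 0.0930), and Ep300 without structured 1 alone (up to 0.131).

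The other regulators fixed by name did not pass. Mdm4, the partner of Mdm2 that blocks p53 activity, was at 86.6 to 105 CPM on smooth and 85.9 to 103 CPM on structured PEEK (log2 fold change -0.03 ± 0.07; edgeR BH-adjusted p = 0.894). The damage kinase genes Atm (0.10 ± 0.05; adjusted p = 0.367) and Chek2 (-0.01 ± 0.07; adjusted p = 0.942) and the p53 phosphatase gene Ppm1d (0.05 ± 0.07; adjusted p = 0.781) did not pass either. The median over the 17 genes was 0.05. Trp73 was at 0 to 4 counts per library and was not tested.

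Of 39 further p53 target genes tested, 1 fell and none rose, or 2.56% against 3.75% of all genes. Their median log2 fold change was 0.02, and 21 were positive. The gene that fell was Gadd45a, a gene of growth arrest and DNA repair that other stresses also induce. It was at 3.56, 3.76, 2.67 and 2.49 CPM on smooth and at 1.86, 1.81, 1.68 and 1.41 CPM on structured PEEK. All structured values were lower at this low level, with a log2 fold change of -0.88 ± 0.19 (SE, n = 4 per group; edgeR BH-adjusted p = 0.0329). The call held without smooth 4 (adjusted p = 0.0481) and was lost without each other library, with adjusted p-values of 0.0561 to 0.0979. It was also lost with no filter on low counts (0.0796) and with limma on log2(FPKM + 0.5) (0.0519) and log2(FPKM + 1) (0.0544), where larger pseudocounts shrank its value to -0.62 and -0.48. DESeq2 gave it no adjusted p.

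Among the 9 arrest genes tested, Btg2 (-0.03 ± 0.14), Plk3 (-0.18 ± 0.10) and Ccng2 (0.06 ± 0.14) did not pass (edgeR BH-adjusted p = 0.946, 0.389 and 0.885). Gdf15, a secreted stress factor, was at 0.868 to 1.58 CPM on smooth and 0.497 to 0.959 CPM on structured PEEK (log2 fold change -0.76 ± 0.29; adjusted p = 0.176). None of 14 cell death targets passed in edgeR, with 6 at an unadjusted p under 0.05, where 18.7% of all tested genes were. DESeq2 called 1 higher and 1 lower, where it called 8.95% of all tested genes. Bid, which links death receptors to Bax, was at 151 to 162 CPM on smooth and 168 to 177 CPM on structured PEEK, without overlap (log2 fold change 0.14 ± 0.04; edgeR BH-adjusted p = 0.0583). Bid was called higher with a mean of at least 1 FPKM required, limma on log2(FPKM + 0.1), counts divided by 4 and DESeq2. The death receptor gene Fas was at 2.70 to 3.77 and 3.47 to 5.69 CPM (0.47 ± 0.18; adjusted p = 0.193). Pmaip1, which encodes the BH3-only protein NOXA (0.05 ± 0.09; adjusted p = 0.849), and Trp53inp1 (0.15 ± 0.12; adjusted p = 0.578) overlapped between surfaces.

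None of 16 targets in repair and metabolism passed in edgeR, with 3 at an unadjusted p under 0.05, where 18.7% of all tested genes were. DESeq2 called 1 of the 16 lower, where it called 8.95% of all tested genes in either direction. Sesn2, a sestrin like Sesn1 and also a known target of the amino acid response, had a value of the other sign. It was at 33.4, 32.9, 35.8 and 43.8 CPM on smooth and at 26.6, 24.5, 33.4 and 26.4 CPM on structured PEEK. Structured 3 again lay within the smooth range, and the other 3 structured libraries were below it. Its log2 fold change was -0.39 ± 0.11 (SE; edgeR BH-adjusted p = 0.0702, and 0.0270 without structured 3). Sesn2 was also called lower with a mean of at least 1 FPKM required and with DESeq2. The repair genes Rrm2b (0.03 ± 0.09; adjusted p = 0.908) and Ddb2 (0.10 ± 0.12; adjusted p = 0.761) did not pass.

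Cell cycle genes that are known to be lowered through p21 showed no common direction, with 2 of 16 lower (2.75% of all tested genes were), none higher (1.01%), 10 positive values and a median of 0.03. DESeq2 called 2 higher, Ccnb1 and Mcm5, and 2 lower, Foxm1 and Plk1, where it called 8.95% of all tested genes. Mcm5 is named after its values were seen. Foxm1, a transcription factor of mitosis, was at 162, 166, 183 and 172 CPM on smooth and at 154, 151, 149.9 and 139 CPM on structured PEEK (log2 fold change -0.20 ± 0.05; edgeR BH-adjusted p = 0.0403). The mitotic kinase gene Plk1 was at 145 to 158 and 133 to 141 CPM (-0.16 ± 0.04; adjusted p = 0.0402). Ccnb1, the cyclin of mitotic entry, was at 241 to 271 CPM on smooth and 275 to 305 CPM on structured PEEK, without overlap and with the other sign (0.17 ± 0.05; adjusted p = 0.0702). It passed with a mean of at least 1 FPKM required (0.0479), with counts divided by 4 (0.0479), without structured 3 (0.0481) and with DESeq2 (0.00347). Its partner Cdk1 had 0.09 ± 0.05 (adjusted p = 0.348). With the GC and length trend removed the adjusted p was 0.153 for Foxm1 and 0.0896 for Plk1. Foxm1 held its call without smooth 1 alone (up to 0.120 otherwise), and Plk1 without smooth 1 or structured 3 (up to 0.126 otherwise).

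**Figure D5:**
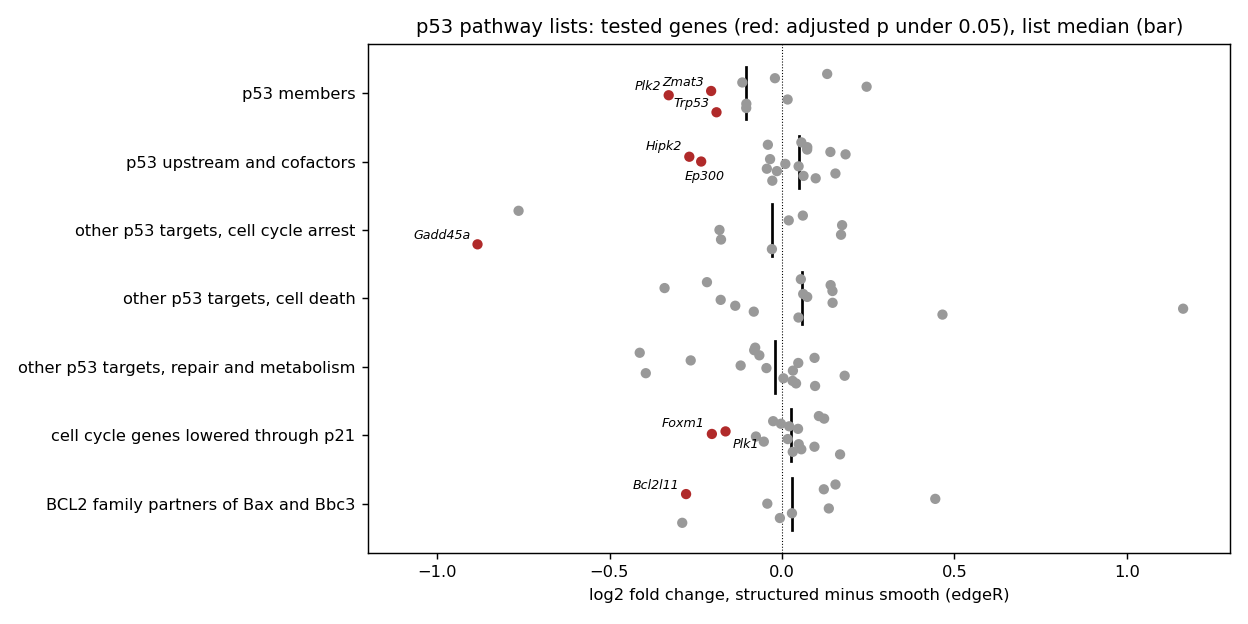
Log2 fold change, structured minus smooth, of every tested gene in the 7 lists around p53 (points), with the median of each list (bar) and genes past the threshold in red with their names. All named genes lie left of 0, and the medians run from -0.10 for the members to 0.06 for the cell death targets.

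Bax and Bbc3 also belong to the BCL2 family. Of 9 other family members tested, 1 fell, where 2.75% of all tested genes did. It was Bcl2l11, which encodes the BH3-only protein BIM, at 31.7 to 36.5 CPM on smooth and 27.2 to 30.5 CPM on structured PEEK (log2 fold change -0.28 ± 0.06; edgeR BH-adjusted p = 0.0325; 0.0788 to 0.103 without smooth 3, smooth 4, structured 1, structured 2 or structured 4). The survival genes Mcl1 (0.03 ± 0.04) and Bcl2l1 (-0.0061 ± 0.04) and the pore former Bak1 (-0.04 ± 0.05) had edgeR BH-adjusted p-values of 0.780, 0.961 and 0.725.

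The p53 signalling pathway of KEGG, as annotated in the deposited table, was counted after the data had been seen. Of its 58 tested genes that are not among the 10, 3 were called (5.17%), near the 3.75% of all tested genes. Tsc2, which restrains mTORC1, fell from 77.5 ± 2.26 to 66.1 ± 2.83 CPM (SD, n = 4), or -0.23 ± 0.04 on the log2 scale (SE; edgeR BH-adjusted p = 0.0219). Leaving out smooth 3, smooth 4, structured 2 or structured 4 ended this call, with adjusted p-values up to 0.0788. Limma on log2 FPKM at each pseudocount also ended it (0.0568 to 0.0616). After removal of the trend on GC content and length the value was -0.13 (edgeR BH-adjusted p = 0.104). The values of Gadd45a are given with the arrest targets. Thbs1, a matrix protein gene, was at 0, 0.226, 0.0930 and 0.152 CPM on smooth and at 4.17, 0.634, 1.70 and 2.19 CPM on structured PEEK. It was the 1 gene of the 3 that rose (edgeR BH-adjusted p = 0.0163). The counts behind its smooth values are few, so the size of its fold is not given. Leaving out smooth 3 or structured 4 ended its call (adjusted p up to 0.0595), as did no filter on low counts (0.058), voom (0.0758) and limma on log2 FPKM at each pseudocount (up to 0.105). DESeq2 gave it no adjusted p. The lincRNA gene Trp53cor1, a neighbour of Cdkn1a and a known p53 target, was also looked up after its values were seen. It was at 1.32, 1.19, 1.19 and 0.914 CPM on smooth and at 0.951, 0.693, 0.639 and 0.202 CPM on structured PEEK, which overlap (edgeR BH-adjusted p = 0.251).

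Of 8884 tested genes with a mean of at least 10 CPM, those most like Trp53 across the 8 libraries were Cerk, Npc1, Pcid2, Smarca4 and Cdt1. Their Pearson r with Trp53 ran from 0.979 to 0.986 (Spearman rho 0.905 to 1) on log2 CPM. Cerk (log2 fold change -0.31), Npc1 (-0.33), Pcid2 (-0.21) and Smarca4 (-0.18) were themselves called lower, while Cdt1 (-0.10) was not. The calls of Cerk and Npc1 held with each library left out in turn, that of Smarca4 was lost without structured 2 or structured 4 (adjusted p up to 0.0630), and that of Pcid2 held without structured 3 alone (up to 0.128). With the trend of counts on GC content and length removed, Smarca4 had -0.074 (edgeR BH-adjusted p = 0.182) and Pcid2 -0.18 (0.0562), and neither was called. Pcid2 also lost its call with no filter on low counts (0.0887) and with limma on log2 FPKM at each pseudocount (0.0603 to 0.0644). For Cdkn1a the nearest were Dock1, Gna12, Eaf1, Gm5884 and Rrm2, with r of 0.945 to 0.976 (rho 0.786 to 0.976), and none of these 5 was called. The points share their surface and their library, and the genes were picked as the highest of many, so no test was made.

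Some reads may be shared with overlapping genes. In GENCODE M21, Cdkn1a overlaps a gene on the opposite strand over 273 exonic bases, and that gene averaged 21.2 counts per library against 11127 for Cdkn1a. Bax shares 192 exonic bases with Gm45808 on the same strand, at 14.8 counts against 15701. The values are per gene and resolve no exon.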

How the data were processed

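RNA from 8 libraries of RAW264.7 cells was oligo(dT)-selected and sequenced as read pairs, per the labels' protocols. The libraries marked the second strand and carried molecular identifiers. The submitters' processing notes name cutadapt 1.9 for trimming and HISAT2 2.2.1 for alignment. How fragments were counted, whether strand or identifiers were used, and which build served is not given in the sources used here. Replicates are numbered as in the library names. The deposited counts are whole numbers per gene and were treated as estimated counts. The deposited FPKM values were taken as normalized to gene length and depth. The file headers name these columns only as count and FPKM. The counts favour the value 4, which occurred 8018 times, against 3344 for 3 and 2180 for 5. They are therefore not plain fragments, and the depth in fragments is unknown. All 10 members had the same coordinates in GENCODE M21 (GRCm38).

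The members and lists were chosen with earlier results of these data known. All genes were fitted with edgeR 4.0.16 (R 4.3.3): TMM scaling, a two-sided quasi-likelihood test and BH adjustment at 0.05, after filterByExpr at a minimum count of 10. The SE is the log2 fold change over the square root of F, and log2 CPM used a prior count of 2. The test was checked on simulated counts for structured against smooth. It recovered 91% of 100 genes changed by 1 on the log2 scale, but only 44% of 100 changed by 0.3. Of 15405 unchanged genes it called 8. The simulated spread followed the trend with expression level, without gene-specific spread or a GC and length trend. These rates may therefore not hold for the real counts. Alternatives used limma 3.58.1, DESeq2 1.42.0, other filters and scalings, a GC and length trend, a replicate block and each library left out; leaving out structured 2 to 4 together was chosen after seeing the data. Named genes were the 10 members, 21 genes by name, and per list the called genes (up to 6) or the gene with the smallest p. The 5 genes most correlated with Trp53 and with Cdkn1a were also named. Of the 21, Cdkn2a was not found by symbol in the deposited table and is not analysed here. Tsc2, Thbs1, Trp53cor1 and Trp53-ps were added after their values were seen. Promoters came from RefSeq (GRCm38.p6).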

Additional observations from a re-analysis of the deposited data

Results flagged for a closer look

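In 4 of 72 groups of 4 libraries, over 36 named genes, 1 library stood apart from the other 3, where chance gives about 1 in 20. Mdm2 was at 320.1 CPM in structured 4, against 336 to 338 CPM in the other structured libraries. Ccng1 was at 141 CPM in smooth 1, against 157 to 159 CPM in the other smooth libraries. Bax was at 250.2 CPM in structured 3, against 236 to 238 CPM. Ddb2, a DNA damage sensor, was at 5.57 CPM in smooth 1, against 6.65 to 6.70 CPM.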

How the results depend on the processing

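Counts of called genes depended on the setting. The 601 genes became 189 with no filter on low counts, 1433 with DESeq2, 191, 242 and 187 with limma on log2(FPKM + 0.5), (FPKM + 0.1) and (FPKM + 1), 7 without structured 2 to 4, and 88 to 597 with 1 library left out in turn (125 without structured 2, 88 without structured 4). The 3 called members became 0 with no filter, 1 with limma at pseudocounts of 0.5 and 1, and 0 to 4 with 1 library left out. The 2 regulators became 0 with no filter, with limma at each pseudocount and without the trend on GC content and length. With 1 library left out they became 0 to 2. The 1 arrest target became 0 with no filter, 0 with limma at pseudocounts of 0.5 and 1, and 0 to 1 with 1 library left out. A mean of at least 1 FPKM gave 2 (Gadd45a and Gtse1). DESeq2 gave 2 (Gtse1 and Psrc1, 1 higher and 1 lower), with no adjusted p for Gadd45a. Gtse1 and Psrc1 are named after their values were seen. The 0 cell death targets became 1 with at least 1 FPKM, 1 with limma at 0.1, 1 with counts divided by 4 and 2 with DESeq2, and stayed at 0 with 1 library left out. The 0 repair targets became 1 with at least 1 FPKM or DESeq2, and 0 to 1 with 1 library left out. The 2 cell cycle genes became 0 with no filter, with limma at 0.5 and 1 and with the trend removed. They became 1 with limma at 0.1, 1 with the replicate block, 4 with DESeq2, and 0 to 2 with 1 library left out. The 1 BCL2 family gene became 0 with no filter and with limma at each pseudocount, and 0 to 1 with 1 library left out. The causes were not tested.

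Fold changes of Trp53, Plk2 and Zmat3 kept their direction under each alternative that gave one here. With DESeq2 Bax had 0.13 (0.0461). With no filter Trp53 had -0.19 (adjusted p = 0.0537), Plk2 -0.32 (0.0651) and Zmat3 -0.20 (0.0695). With limma Plk2 had -0.32 at a pseudocount of 0.5 and -0.31 at 1, and Zmat3 had -0.18, -0.20 and -0.17 at 0.5, 0.1 and 1. The fit without structured 2 to 4 keeps 1 structured library, so its calls are not weighed here. With the trend on GC content and length removed Zmat3 had -0.14, Ccng1 -0.018, Pmaip1 -0.0033 and Bcl2l1 0.031, each of the last 3 with its sign turned. Over the libraries left out in turn, log2 fold changes ran from -0.21 to -0.17 for Trp53, -0.37 to -0.28 for Plk2, -0.24 to -0.19 for Zmat3, -0.024 to 0.042 for Ccng1, 0.15 to 0.34 for Sesn1, -0.088 to 0.081 for Bbc3, -0.078 to 0.019 for Mdm4, -0.056 to 0.030 for Chek2, -0.016 to 0.11 for Pmaip1, -0.045 to 0.14 for Ccng2, -0.14 to 0.059 for Btg2, -0.034 to 0.071 for Rrm2b and -0.031 to 0.017 for Bcl2l1. The ranges that follow are over 19 alternatives and do not cover leaving out structured 2 to 4 together. The adjusted p ran from 4.13e-05 to 0.0800 for Trp53, 4.53e-05 to 0.0788 for Plk2 and 0.00294 to 0.147 for Zmat3. With no filter, and with limma at pseudocounts of 0.5 and 1, Hipk2, Ep300, Foxm1, Plk1 and Bcl2l11 also lost their calls, which DESeq2 kept. The share of lower genes among calls was 73.2%, against 61.4% with DESeq2 and 54.1% with the trend removed.

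Same-numbered libraries correlated in their deviations at 0.335 for number 2, the highest of all 16 pairs, 0.110 for number 3, -0.033 for number 1 and -0.0755 for number 4, against -0.205 to 0.261 over the 12 other pairs. Since not all 4 were over 0.1 and the labels name nothing shared, the numbers were not taken to pair the samples. With the replicate block 499 genes were called (125 higher, 374 lower), with Trp53 and Plk2 among them while Zmat3 (edgeR BH-adjusted p = 0.0597, log2 fold change -0.21), Foxm1 (0.0614), Pcid2 (0.0564) and Thbs1 (0.0607) were not called.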
